A study of Mus musculus with 10 samples.

Results

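The 83 genes described here encode the proteins of the cytosolic ribosome in the mouse, and they were taken from 26360 listed genes by name: protein-coding entries called Rpl or Rps with a number, with or without a letter or a paralog suffix, together with Rplp0, Rplp1, Rplp2 and Rpsa. Of these, 46 were canonical proteins of the large subunit, 31 were canonical proteins of the small subunit and 6 were paralogs (Rpl3l, Rpl7l1, Rpl22l1, Rpl36al and Rpl39l of the large subunit, Rps27l of the small). A mean of at least 1 CPM (reads of a gene scaled to a common library total) over all libraries was required for testing. It was reached by 81 members, and Rps27 and Rpl39l fell below it. Fau and Rack1, which encode a ribosomal and a ribosome-bound protein under other names, are not matched by the name rule and are given beside the members. Rps4l is listed as a transcribed processed pseudogene and is likewise not a member, and no value for Rpl10l was analysed here.

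Total RNA, depleted of ribosomal RNA, was sequenced from the combined choroid, sclera and retinal pigment epithelium (RPE), as the tissue label has it, of 5 wild-type C57BL/6J mice at postnatal day 34, with 1 library for each eye of every animal (numbered 61, 64, 65, 66 and 68 in the titles). Each animal had worn a −20 D lens, held by a goggle, over 1 eye for 10 days from postnatal day 24, a treatment that makes the growing eye short-sighted, and the fellow eye wore no lens. Both eyes of each animal shared the ketamine and xylazine anaesthesia given on the first day. The labels do not record the eye under the lens, so the sign of a right minus left difference carries no treatment meaning. A fellow eye in the same animal is also not an eye of an untreated mouse. The extraction protocol speaks of retinae, and levels of marker genes of several tissues are given with the comparisons below.

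Ribosomal proteins assemble with ribosomal RNA into a large subunit, which forms peptide bonds, and a small subunit, which decodes the messenger. Each canonical protein is present in the same number per ribosome except for the acidic stalk proteins, and most cells make all of them together. Their messengers begin with a run of pyrimidines, the 5′ terminal oligopyrimidine (TOP) tract, through which mTORC1 signalling and the protein Larp1 adjust their translation. Mammalian genomes also carry very many intronless copies of these genes, most of them processed pseudogenes made by reverse transcription of the messenger, and some paralogs are used in particular tissues, such as Rpl3l in striated muscle.

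Reads from a ribosomal protein messenger can match a gene and its copies equally well. The first 90 coding bases of 3 genes, of an intronless copy of each and of a paralog of each are shown because the CPM of each such family is divided among near-identical entries, and the paralogs are the relatives that differ more. All are on the coding strand from the start codon, read from GENCODE M21 transcripts on GRCm38, with capitals marking bases that differ from the canonical gene. Rps27 lies at chr3:90212522-90213651, its copy Rps27rt at chr9:114982366-114982739 in 1 exon, and Rps27l at chr9:66946086-66949516. In these 90 bases Rps27rt differed from Rps27 at 0 positions and Rps27l at 24.
Rps27: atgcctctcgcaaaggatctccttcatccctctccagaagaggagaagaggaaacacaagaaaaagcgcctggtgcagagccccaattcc
Rps27rt: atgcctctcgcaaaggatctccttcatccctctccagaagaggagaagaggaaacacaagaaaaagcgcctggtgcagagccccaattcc
Rps27l: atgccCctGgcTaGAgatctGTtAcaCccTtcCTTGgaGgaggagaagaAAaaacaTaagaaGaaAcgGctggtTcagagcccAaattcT
Rpl36a lies at chrX:134585654-134588062, its copy Rpl36a-ps2 at chr3:145879020-145879340 in 1 exon, and the paralog Rpl36al at chr12:69182731-69184083. The copy differed at 0 of these positions and Rpl36al at 14.
Rpl36a: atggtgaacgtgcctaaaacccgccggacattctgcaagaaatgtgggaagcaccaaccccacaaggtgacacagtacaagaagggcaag
Rpl36a-ps2: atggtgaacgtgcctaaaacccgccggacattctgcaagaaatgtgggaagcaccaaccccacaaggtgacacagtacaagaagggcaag
Rpl36al: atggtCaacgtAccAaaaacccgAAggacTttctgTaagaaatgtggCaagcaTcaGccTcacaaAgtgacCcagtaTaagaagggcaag
Rpl3 lies at chr15:80077791-80091868, its copy Rpl3-ps1 at chrX:13202571-13203780 in 1 exon, and the paralog Rpl3l at chr17:24727820-24736143. The copy differed at 1 position and Rpl3l at 21.
Rpl3: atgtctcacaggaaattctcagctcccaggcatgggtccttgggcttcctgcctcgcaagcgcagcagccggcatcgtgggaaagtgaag
Rpl3-ps1: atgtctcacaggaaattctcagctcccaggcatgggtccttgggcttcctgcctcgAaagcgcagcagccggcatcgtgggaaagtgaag
Rpl3l: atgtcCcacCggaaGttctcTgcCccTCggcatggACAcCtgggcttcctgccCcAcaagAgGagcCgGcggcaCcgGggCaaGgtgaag
Over the whole coding sequence, the paralogs were less like their canonical partners than the copies were. The identity was 87.7% for Rpl36al, 85.0% for Rpl39l, 76.2% for Rps27l, 74.1% for Rpl3l, 65.6% for Rpl22l1 and 51.1% for Rpl7l1.

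The start-site tract was searched in the RefSeq promoters (GRCm38.p6) that matched 63 of the 83 members by symbol. Windows of 30 bases, 15 on each side of the RefSeq start and on the gene's strand, are shown for members with a long tract, for Rps6 and Rps27, and for 3 members in which no tract was found. The RefSeq start lay 493 bases from the listed gene's 5′ end for Rpl35, 405 for Rpl15 and 0 to 45 for the other windows shown. Among all members counted, this distance reached 3553 bases (Rps24). Capitals mark a tract, defined as a C followed by at least 6 pyrimidines (C or T) with its start within 20 bases of the RefSeq start.
Rpl7a (chr2:26910792-26910821, plus strand): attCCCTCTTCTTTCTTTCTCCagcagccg
Rpl35 (chr2:39005117-39005146, minus strand): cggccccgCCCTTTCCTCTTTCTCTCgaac
Rpl15 (chr14:18270972-18271001, minus strand): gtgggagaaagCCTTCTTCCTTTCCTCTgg
Rps6 (chr4:86857353-86857382, minus strand): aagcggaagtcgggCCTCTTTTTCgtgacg
Rps27 (chr3:90213634-90213663, minus strand): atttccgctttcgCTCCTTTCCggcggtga
Rplp0 (chr5:115559452-115559481, plus strand): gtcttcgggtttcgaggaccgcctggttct
Rpl36al (chr12:69184053-69184082, minus strand): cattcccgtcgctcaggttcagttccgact
Rpl3l (chr17:24727811-24727840, plus strand): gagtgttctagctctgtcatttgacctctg
A tract was found in 32 of the 63 member promoters (50.8%) and in 20.4% of 13181 promoters of other protein-coding genes. The RefSeq start nearest the listed gene's 5′ end was used for members, but the first by position for other genes. These shares and the motif shares below are therefore not of starts chosen alike. On the opposite strand the shares were 15.9% and 22.9%. Large-subunit canonical genes had the tract in 18 of 34 promoters, small-subunit canonical genes in 11 of 23, and paralogs in 3 of 6 (Rpl22l1, Rpl39l and Rps27l). The letters CTTTCC stood within 20 bases of the start on the gene's strand, often inside a tract, in 15.9% of member promoters and 1.81% of the others. CCGGAAG, the core of ETS-family factor motifs, stood on either strand of the 300-base promoter in 39.7% and 14.7%. AAGATGGC, the core of the YY1 motif, stood on either strand in 7.94% and 3.79%. These matches describe the letters of each window and were not tested for use in this tissue.

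The deposited values are CPM of the whole library, and the listed genes added up to between 42.7% and 47.1% of each library. The smallest steps between values implied about 66900000 to 94300000 reads per library, so 3 reads, the floor used here, correspond to 0.0318 to 0.0448 CPM. Every member stood above that floor in every library, and this floor covers counting error only.

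Nearly as much RNA was listed under copies of the ribosomal protein genes as under the genes themselves. Together the 83 members had a mean of 2917 CPM. Another 2472 CPM, or 45.9% of the sum of genes and copies, was listed under 350 other entries whose annotated transcript matched a member's coding sequence at 90% identity or more over at least 70% of its length (copies, a definition chosen after the data were seen). Of these entries 340 are annotated as pseudogenes and 9 as protein-coding with 1 exon, such as Rpl10-ps3 and Rps27rt, and 1 (Gm10076, identical to the Rpl41 coding sequence) as a long non-coding RNA. A further 5 entries, protein-coding with several exons, also matched. They were left out of the copies and of all sums with copies. At least 1 copy was listed for 77 members, and none for the other 6, which include Rpl8, Rplp2, Rpl36al, Rpl39l and Rpl3l. For 37 of the 77 canonical members the copies held more CPM than the gene, and for 13 the gene held under 10% of the joint sum.

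Rps27, a zinc-finger protein of the small subunit, was the lowest canonical member. In the order of animals 61, 64, 65, 66 and 68, which is used throughout, its values were 0.860, 0.469, 0.937, 0.560 and 0.687 CPM in the left eyes and 0.602, 0.857, 0.760, 0.675 and 0.696 CPM in the right eyes. The single-exon Rps27rt, whose coding sequence was identical, had 80.1, 93.6, 64.8, 95.1 and 74.1 CPM in the left eyes and 89.7, 83.6, 92.3, 70.8 and 75.8 CPM in the right eyes. Every library therefore had Rps27 below 1 CPM and its copy above 60 CPM, and the gene held 0.858% of their joint CPM. Rpl10, a large-subunit protein added late in maturation, was listed at 5.19 CPM and Rpl10-ps3, also identical over the coding sequence, at 120.2 CPM. Rpl17 (1.07 CPM), Rpl23a (1.31 CPM), Rpl24 (1.24 CPM) and Rpl36a (1.86 CPM) were the lowest canonical genes of the large subunit, and their copies summed to 79.6, 44.2, 24.6 and 28.0 CPM. In the small subunit, Rps7 (3.17 CPM), Rps10 (3.58 CPM) and Rps13 (3.98 CPM) followed Rps27 at the low end, with copies at 70.2, 37.7 and 21.2 CPM. For each of the 4 lowest genes of each subunit, the copies held more CPM than the gene in the mean over libraries.

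At the other end stood genes that held most of their joint CPM. The highest of the large subunit were Rpl4 (129 CPM, 95.3% of gene and copies), the stalk base Rplp0 (126 CPM, 84.7%), Rpl7 (124 CPM, 91.8%) and the very short Rpl41 (123 CPM, 97.6%). The highest of the small subunit were Rpsa, also known as the laminin receptor (134 CPM, 86.2%), Rps4x (109 CPM, 84.2%), Rps3, which lines the messenger entry channel (99.4 CPM, 99.8%), and Rps14 (87.3 CPM, 81.1%). Rps6, the substrate of the S6 kinases, had 19.5 CPM under its own name and 95.7 CPM under its copies, of which Rps6-ps4 had 95.4 CPM. Rpl3, which reaches into the catalytic centre, had 56.6 CPM beside 85.6 CPM for Rpl3-ps1.

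Per kilobase of transcript, the scale on which genes of different length can be compared, the canonical members ran from 1.38 CPM per kb (Rpl17) to 282 CPM per kb (Rpl41), with a median of 34.8. Their levels spread with an SD of 1.82 log2 units. When each gene was summed with its copies, the median was 83.7 CPM per kb with an SD of 0.80 log2 units. Summed this way, Rps27 moved from 2.06 to 240.0 CPM per kb, Rpl10 from 6.5 to 158 and Rps7 from 3.87 to 89.5, while Rpl41 stayed highest at 289. The lowest sums were Rps20 (10.7 CPM per kb, divided by the 3706 bases of its only annotated coding transcript), Rpl39 (24.5 CPM per kb) and the stalk protein Rplp2 (26.5 CPM per kb). Its partner in the stalk, Rplp1, stood at 238 CPM per kb. Rplp2 has no listed copy, so its sum is the gene alone, but only 2 of its 10 values were whole numbers of reads. The part of its reads listed under other entries was not tested.

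**Figure D1:**
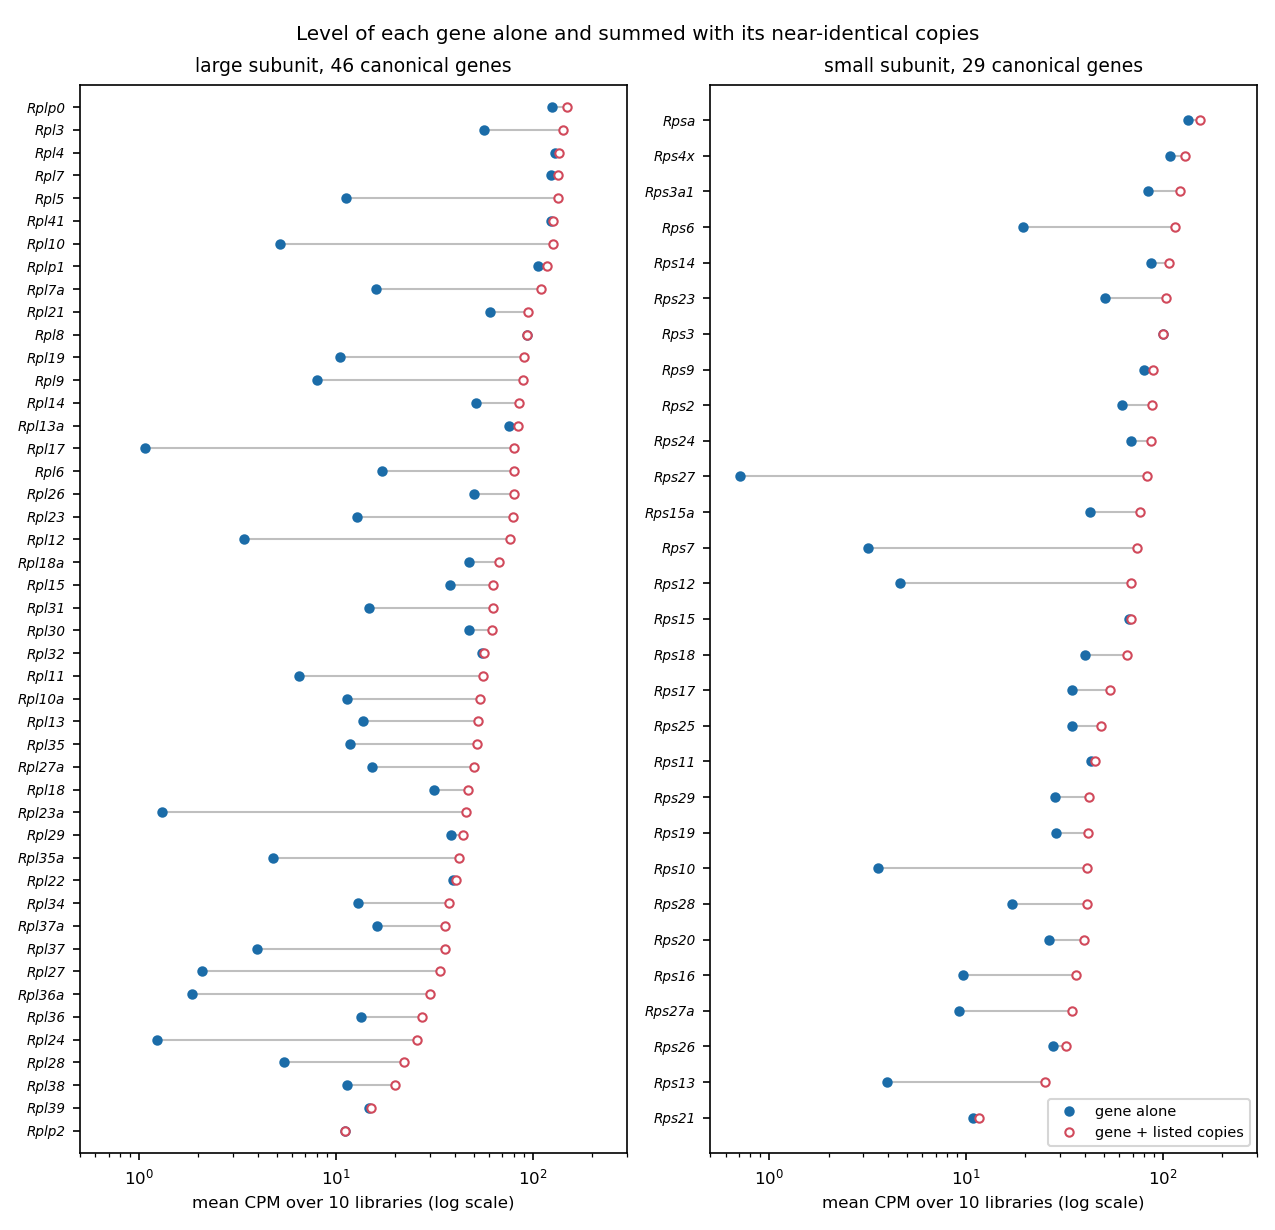
Mean CPM over 10 libraries (log axis) of each canonical large-subunit (left panel, 46 genes) and small-subunit gene (right panel, 29 of 31 genes). Filled points are the gene alone and open points the gene summed with its listed copies, and the grey line is the part listed under copies, which for Rps27 takes the value from 0.7102 to 82.8 CPM and for Rpsa from 134 to 155 CPM.

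Copies with the closest likeness to the gene had the highest values. Of 110 copies at 99% identity or more, 79 had a mean of at least 1 CPM and their median was 9.96 CPM. Of 104 copies between 97% and 99%, 30 reached 1 CPM and the median was 0.0756 CPM. Of 136 below 97%, 9 reached it. In 5 copies of Rpl35a on 5 chromosomes (Gm10243, Rpl35a-ps2, Rpl35a-ps3, Rpl35a-ps4 and Rpl35a-ps6), each 99.7% identical to the gene, the listed values were equal in all 10 libraries at a mean of 7.43 CPM each, against 4.81 CPM for Rpl35a. Values of up to 2000 implied reads were whole numbers of reads (within 0.05 read) for 89.3% of values of other protein-coding genes, 33.7% of those of the copies and 16.8% of those of the members. Rpl3l and Rpl39l, which have no listed copy, were whole in 10 of 10 libraries each, while Rplp2 was whole in 2 and Rpl36al in 0. The sources used here do not give how reads that match several places were assigned, and RNA made at a gene and RNA made at an identical copy cannot be told apart in these values. In addition, 26 members share bases with another entry of the table, 8 of these with an entry on their own strand, and use of strand in counting is likewise not given.

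Per kilobase, all 6 paralogs lay below the median of the canonical genes, 34.8 CPM per kb. Rpl36al reached 31.6 CPM per kb, Rpl7l1 17.7, Rps27l 14.5, Rpl22l1 7.53, Rpl3l 1.73 and Rpl39l, best known from testis, 0.741. Rpl39l was listed at 0.446, 0.471, 0.299, 0.583 and 0.319 CPM in the left eyes and 0.333, 0.372, 0.646, 0.331 and 0.276 CPM in the right eyes, so all 10 values lay between 0.276 and 0.646 CPM. Its canonical partner Rpl39 lay between 11.3 and 19.6 CPM. The 2 pairs in which the paralog was listed above its partner, Rpl36al over Rpl36a and Rps27l over Rps27, were those with 93.8% and 99.1% of the partner's joint CPM under its copies. Summed with copies, Rpl36a stood at 61.8 CPM per kb and Rps27 at 240.0, both above the paralog.

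Summed over members, the ribosomal protein genes took 2573 to 3123 CPM of a library. The sums by library were 3041, 3123, 2573, 3122 and 3046 CPM in the left eyes and 3028, 2951, 2885, 2641 and 2760.2 CPM in the right eyes. The left eye of animal 65 was lowest and stood apart from the other left eyes, which lay within 3041 to 3123 CPM, and the right eye of animal 66 was the lowest right eye. The left eye of animal 65 also had the smallest sum over all listed genes, 42.7% of its library, beside 45.7% to 46.3% in the other left eyes. As a share of listed-gene CPM, the ribosomal protein genes took 0.603% there and 0.658% to 0.683% in the other left eyes, and on this scale the lowest library was the right eye of animal 66, at 0.560%. The members' sums averaged 2981 ± 231 CPM over left eyes and 2853 ± 154 CPM over right eyes (SD, n = 5 on each side), lower in the right eye of 4 of 5 animals, and the ranges overlapped. Large-subunit genes summed to 1632 ± 127 and 1565 ± 75.5 CPM, and small-subunit genes to 1349 ± 105 and 1288 ± 79.8 CPM (SD, n = 5 each, left and right). These subunits kept nearly the same proportion in every library, with a ratio of large to small of 1.21 ± 0.00953 in the left and 1.22 ± 0.0236 in the right eyes (SD, n = 5 each). With copies included the ratio was 1.52 ± 0.0184 and 1.51 ± 0.00853, since 50.8 ± 0.604% of the large-subunit sum but 38.3 ± 0.667% of the small-subunit sum in left eyes was listed under copies.

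**Figure D2:**
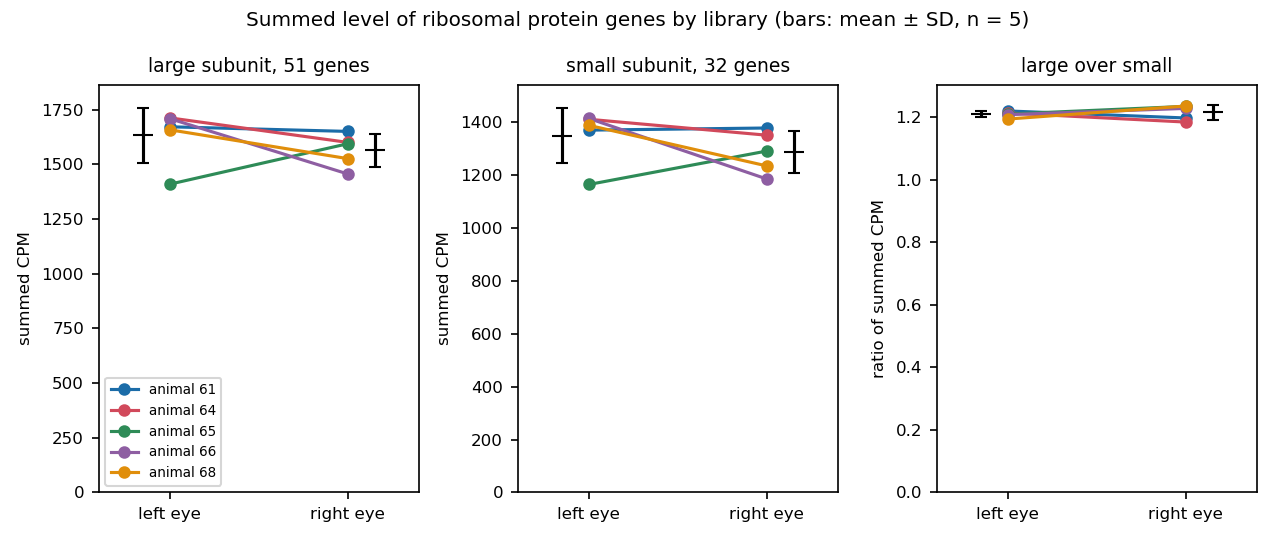
Summed CPM of 51 large-subunit genes (left), of 32 small-subunit genes (middle), paralogs included, and their ratio (right) in each library, with axes starting at 0, lines joining the eyes of an animal and bars giving the mean ± SD (n = 5). The left eye of animal 65 lies below the other 4 left eyes in both sums, and all 10 ratios lie between 1.18 and 1.24.

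Member by member, the same libraries stood low. In the left eye of animal 65, 77 of the 81 tested members lay below their own mean over the 10 libraries, with a median deviation of -0.17 on the log2(CPM + 0.23) scale, and 32 members had their lowest value there. In the right eye of animal 66 it was 71 members, with a median of -0.14. Over all 15414 genes tested the median deviation of those libraries was -0.044 and -0.0029. The left eyes of animals 66 and 64 were the highest, with 11 and 15 members below their mean. A typical member varied with an SD of 0.16 log2 units over the libraries, beside 0.16 for a typical gene. The steadiest were Rpl30 (0.071), Rpl7l1 (0.072) and Rpl4 (0.077), of which Rpl30 was named after its value was seen, and the most variable was Rpl3l (0.67).

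**Figure D3:**
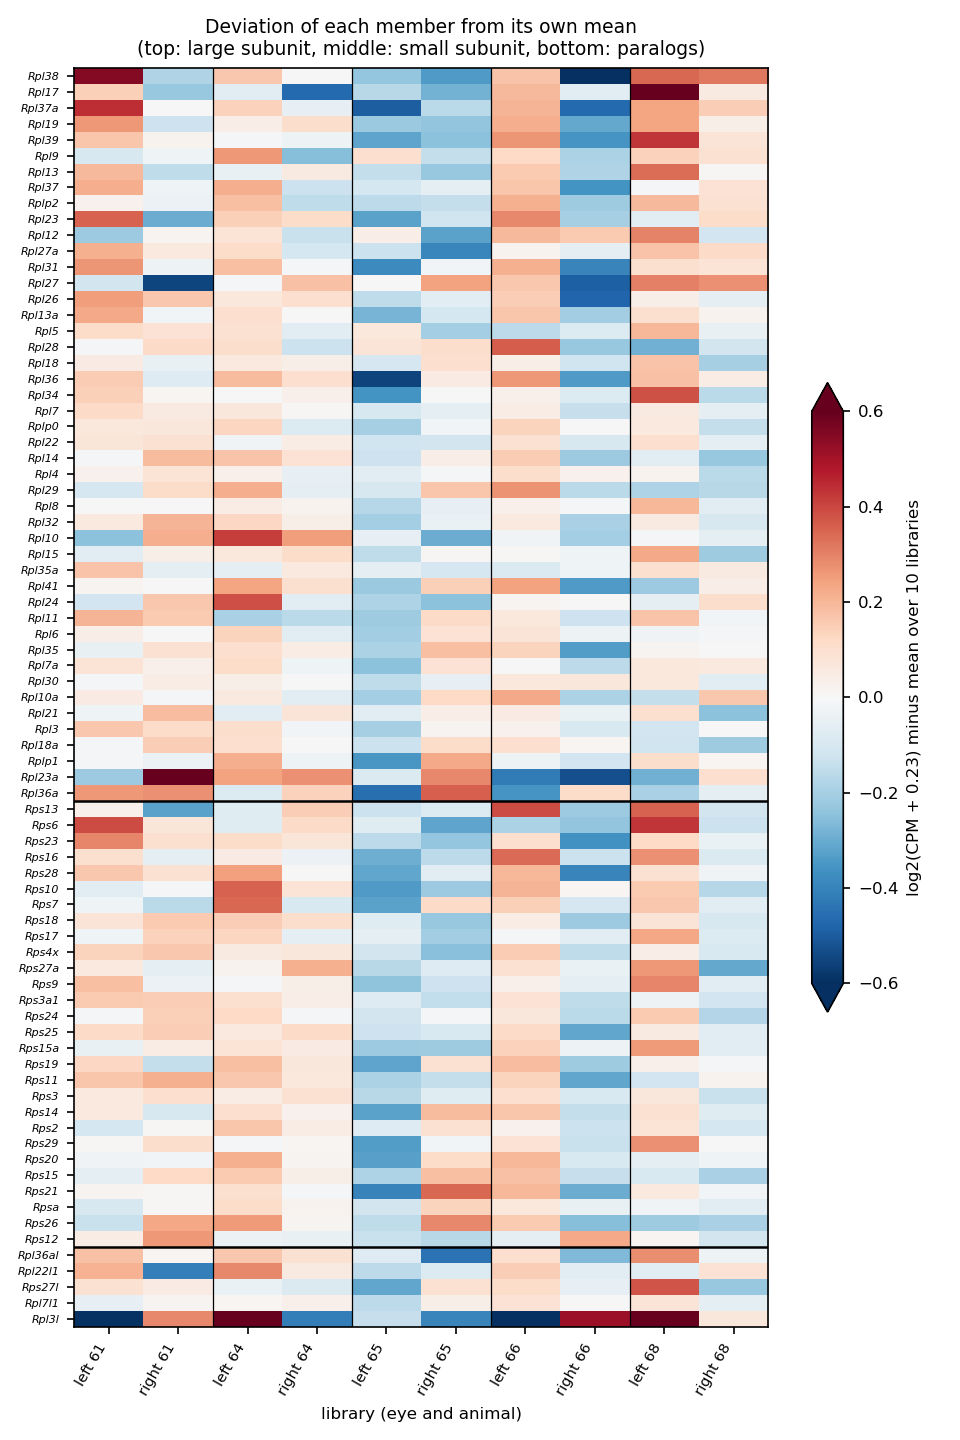
Deviation of 79 of the 81 tested members (rows) in each library (columns) from the member's mean over 10 libraries, on the log2(CPM + 0.23) scale, with red above and blue below the mean and colours cut at 0.6 either way. The columns of the left eye of animal 65 and the right eye of animal 66 are mostly blue in both subunits, with medians over the 81 of -0.17 and -0.14, and Rpl3l in the bottom row has the widest range.

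Between fellow eyes, no ribosomal protein gene passed the test, and most lay slightly lower in the right eye. With the animal as a block, limma called 0 of 81 members at an adjusted p under 0.05, beside 0 of 15414 genes tested (0.0% called), and the smallest adjusted p of a member was 0.9998. At an unadjusted p under 0.05, 6 members were found, all lower in the right eye, against 2.79% of all genes, 1.99% lower and 0.804% higher. No member had right and left values that failed to overlap, beside 0.214% of all genes. By direction alone 67 of 81 members lay lower in the right eye, with a median difference of -0.081 log2 units, beside 54.0% of all genes and a median of -0.0079. Values were lower in the right eye of all 5 animals for 6 members (Rpl17, Rpl27a, Rpl36al, Rpl38, Rps23 and Rps3a1), beside 2.67% of genes, and in at least 4 animals for 34 members, beside 21.6% of genes. The 95% interval of the difference lay within 1.5-fold in either direction for 76 of 81 members.

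Both subunits leaned the same way. Of the large-subunit canonical genes 39 of 46 were lower in the right eye (median -0.061), of the small-subunit genes 25 of 30 (median -0.087) and of the paralogs 3 of 5. This lean was not shared by every animal. The right eye was lower for 44, 59, 21, 75 and 66 of 81 members in the 5 animals, and the median difference was -0.022, -0.086, 0.12, -0.23 and -0.13. Of all genes tested, 48.6%, 59.1%, 39.2%, 55.6% and 62.6% were lower in the right eye, with medians of 0.0057, -0.040, 0.064, -0.029 and -0.062. In animal 65, with the low left eye, the members went the other way, as most genes did there. Members went furthest in animal 66, with the low right eye. Without animal 66 the median over members was -0.039 with 52 of 81 lower, and without animal 65 it was -0.12 with 76 lower. With genes summed with their copies, 73 of 82 members were lower (median -0.065), and 1 (Rpl36al) had an unadjusted p under 0.05, beside 2.73% of all genes.

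The member with the smallest p was the paralog Rpl36al. It measured 18.6, 18.4, 15.6, 17.7 and 19.98 CPM in the left eyes and 16.6, 17.5, 12.0, 13.6 and 16.1 CPM in the right eyes, which gave 18.0 ± 1.62 and 15.2 ± 2.27 CPM (SD, n = 5 each). The right eye was lower in each animal, but the groups overlapped, and limma gave -0.26 ± 0.064 (SE) with an unadjusted p of 0.00478 and an adjusted p of 0.9998. Rps23, which sits in the decoding centre, measured 61.7, 54.4, 45.2, 54.0 and 54.9 CPM in the left eyes and 53.9, 53.0, 42.9, 39.1 and 49.0 CPM in the right eyes. All 5 right eyes were lower than their fellows, with a difference of -0.19 ± 0.068 (SE) and an unadjusted p of 0.0272 by limma. Rpl27a measured 17.5, 16.2, 13.7, 15.3 and 17.0 CPM in the left eyes and 15.7, 13.97, 11.4, 14.5 and 16.3 CPM in the right eyes and differed by -0.15 ± 0.056 (SE; unadjusted p 0.0285, limma). Summed with copies the last 2 differences were -0.090 and -0.094, and that of Rpl36al, which has no listed copy, was -0.26. Rpl36al still shares bases on its own strand with another entry, Gm49383, and 0 of its 10 values were whole numbers of reads. The part of shared reads in its values was not tested. The remaining members at an unadjusted p under 0.05 were Rpl38 (-0.40 ± 0.15), Rpl17 (-0.39 ± 0.15) and Rpl13 (-0.20 ± 0.082), of which Rpl38 and Rpl13 were named after their values were seen.

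The members with the smallest p in the other direction were Rpl36a, Rpl23a and Rps12, and each holds under 10% of the CPM of gene and copies. Rpl36a measured 2.24, 1.72, 1.28, 1.38 and 1.57 CPM in the left eyes and 2.26, 2.04, 2.41, 1.99 and 1.75 CPM in the right eyes. It was higher in the right eye of all 5 animals, by 0.33 ± 0.15 (SE; unadjusted p 0.0582, limma), and the groups overlapped. Its copies Rpl36a-ps2 and Rpl36a-ps1 had left-eye means of 17.2 ± 1.502 and 12.0 ± 0.961 CPM, and right-eye means of 15.5 ± 2.40 and 10.7 ± 1.93 CPM (SD, n = 5). Summed with its copies, Rpl36a differed by -0.13 ± 0.10, so the direction turned. Rpl23a differed by 0.31 ± 0.17 alone and by -0.048 with copies, and Rps12 by 0.065 ± 0.091 alone and by -0.091 with copies. No direction can therefore be given for these 3 genes.

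**Figure D4:**
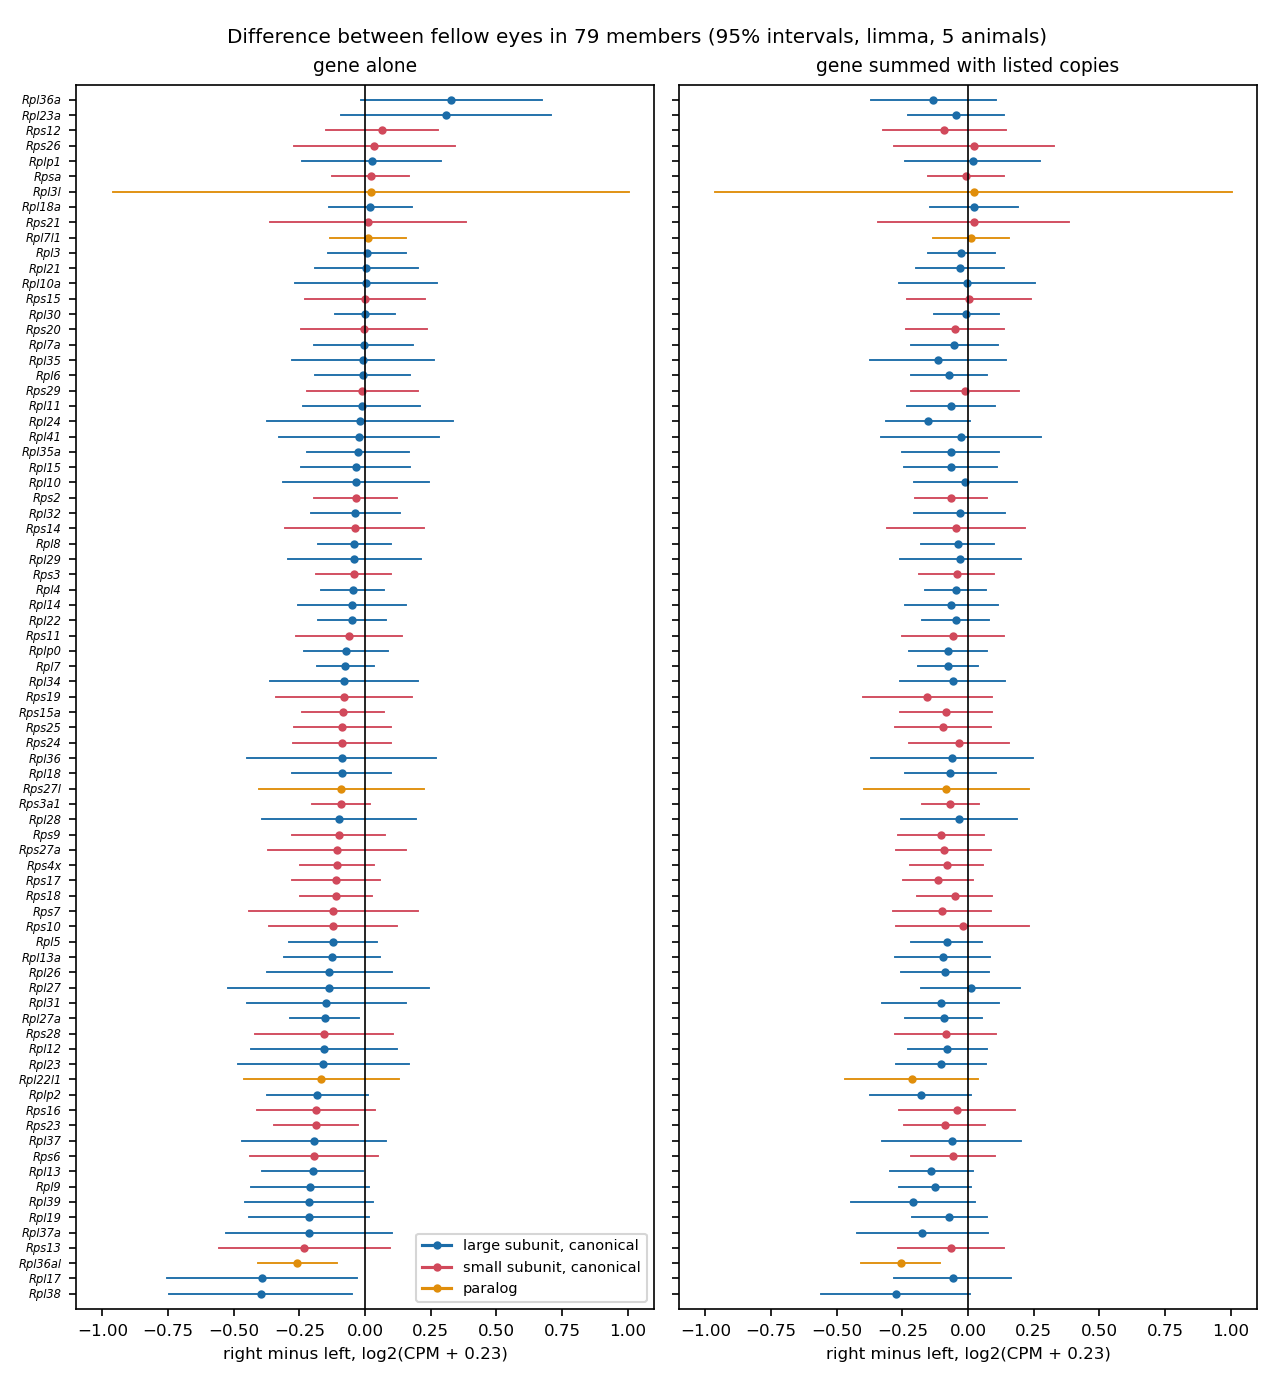
Right minus left difference of 79 of the 81 tested members on the log2(CPM + 0.23) scale with 95% intervals from limma (5 animals), for the gene alone (left) and for the gene summed with its listed copies (right), in the order of the left panel. Rpl36a, Rpl23a and Rps12 head the left panel at 0.33, 0.31 and 0.065 and lie below 0 in the right panel, and Rpl36al keeps -0.26 in both.

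Members with functions of their own are given by role. Of the acidic stalk, which recruits elongation factors, Rplp0 measured 131, 137, 109, 137 and 130.4 CPM in the left eyes and 131, 118, 124, 125 and 113 CPM in the right eyes. Rplp1 had a left-eye mean of 106 ± 14.9 CPM and a right-eye mean of 107 ± 10.0 CPM, and Rplp2 11.9 ± 1.27 and 10.4 ± 0.913 CPM (SD, n = 5 each). Their differences were -0.072 ± 0.068, 0.025 ± 0.11 and -0.18 ± 0.082 (SE), with unadjusted p of 0.320, 0.831 and 0.0608 by limma. Rpsa measured 125, 144, 124, 139 and 131 CPM in the left eyes and 134, 135, 146, 129 and 127 CPM in the right eyes, and the ranges of the sides overlapped. Rps6 measured 25.3, 18.3, 18.3, 16.9 and 26.0 CPM in the left eyes and 20.3, 20.9, 15.4, 16.3 and 17.6 CPM in the right eyes, lower in the right eye of 4 of 5 animals, and its difference was -0.19 ± 0.10 (SE; unadjusted p 0.102, limma) alone and -0.059 with copies. Rps27a, made as a fusion with ubiquitin, had 9.49 ± 1.03 and 8.81 ± 1.17 CPM in left and right eyes (SD, n = 5 each). Fau, whose product carries another small-subunit protein, had 31.7 ± 5.89 and 29.6 ± 4.44 CPM, and Rack1, a signalling scaffold on the small subunit, 117 ± 7.81 and 114 ± 3.65 CPM. Of these 3 genes none had an unadjusted p under 0.05 by limma.

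Among the 5 animals, with the spread between fellow eyes as the error, limma's F test called 0 of 81 members, beside 13 of 15414 genes (0.0843%). Members at an unadjusted p under 0.05 numbered 5 (among them Rpl27a, Rpl36al, Rps23 and Rps3a1), beside 7.22% of all genes, and the smallest adjusted p was 0.546 (Rpl27a). Rps3a1 measured 93.3, 89.2, 79.2, 88.7 and 81.7 CPM in the left eyes and 92.5, 85.9, 75.4, 75.2 and 77.3 CPM in the right eyes, highest in both eyes of animal 61, with animals 65 and 66 lowest among left and right eyes. Rps18, the next by p (unadjusted p 0.0692, limma), had its highest mean over both eyes in animal 64. What separates the animals (the mouse, its dissection or its preparation) cannot be told apart from the labels.

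The ratio of each paralog to its canonical partner was compared between eyes since a ratio within a library depends little on how libraries are scaled. Of 7 pairs with values, 5 had both genes at 1 CPM or more, and the 2-sided exact permutation test over every division of the 10 libraries, which cannot go below 0.00794, was adjusted over those 5. Relative to Rpl36a, Rpl36al stood at 3.31 ± 0.23 in left and 2.72 ± 0.33 log2 units in right eyes (SD, n = 5 each; exact permutation p = 0.0238, adjusted 0.119). It was lower in the right eye of 5 of 5 animals and did not pass after adjustment. That test takes no account of fellow eyes sharing an animal, and the exact sign-flip permutation test on the 5 within-animal differences gave p = 0.0625 (adjusted 0.312), the smallest that 5 animals allow. With Rpl36a summed with its copies, the difference in the ratio went from -0.59 to -0.12 (exact permutation p = 0.310). Rpl7l1 over Rpl7 was -2.45 ± 0.083 and -2.36 ± 0.075 log2 units, and Rpl22l1 over Rpl22 was -3.13 ± 0.18 and -3.24 ± 0.25 (SD, n = 5 each). Rps4l over Rps4x was -5.07 and -5.03 log2 units. The adjusted p of these 3 pairs by exact permutation lay between 0.357 and 0.984.

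Rpl3l varied more among libraries than any other tested member. It measured 1.34, 3.97, 1.92, 0.837 and 4.51 CPM in the left eyes and 2.66, 1.54, 1.57, 3.15 and 2.25 CPM in the right eyes, and relative to Rpl3 it ran from -5.76 to -3.46 log2 units. It did not differ by eye beyond that spread (adjusted p = 0.984 by exact permutation), being higher in the right eye of 2 animals and lower in 3. Rpl3l replaces Rpl3 in striated muscle, and the summed level of 20 skeletal muscle marker genes was 4768, 9945, 4891, 2254 and 10499.9 CPM in the left and 5269.6, 4719.5, 3984, 8280.1 and 4654 CPM in the right eyes. Ttn alone had a mean of 3532 CPM over the 10 libraries, so 1 gene makes up much of these sums. They are not divided by transcript length. The sign of the right minus left difference was the same for Rpl3l and for the muscle sum in all 5 animals, and for Rpl3l and the mean of the muscle log2 values in 4, since that mean differed by -0.019 in animal 61. The left eyes of animals 68 and 64 had the highest values of both, and the left eye of animal 66 the lowest of both. The part of muscle RNA in the Rpl3l values was not tested, and in tissue pieces fewer cells of a type and less RNA per cell cannot be told apart. Rpl22l1, whose level is known to be held down by Rpl22, measured 4.80, 5.07, 3.67, 4.58 and 3.91 CPM in the left eyes and 3.04, 4.28, 3.88, 3.93 and 4.39 CPM in the right eyes, a range without a separation of eyes.

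**Figure D5:**
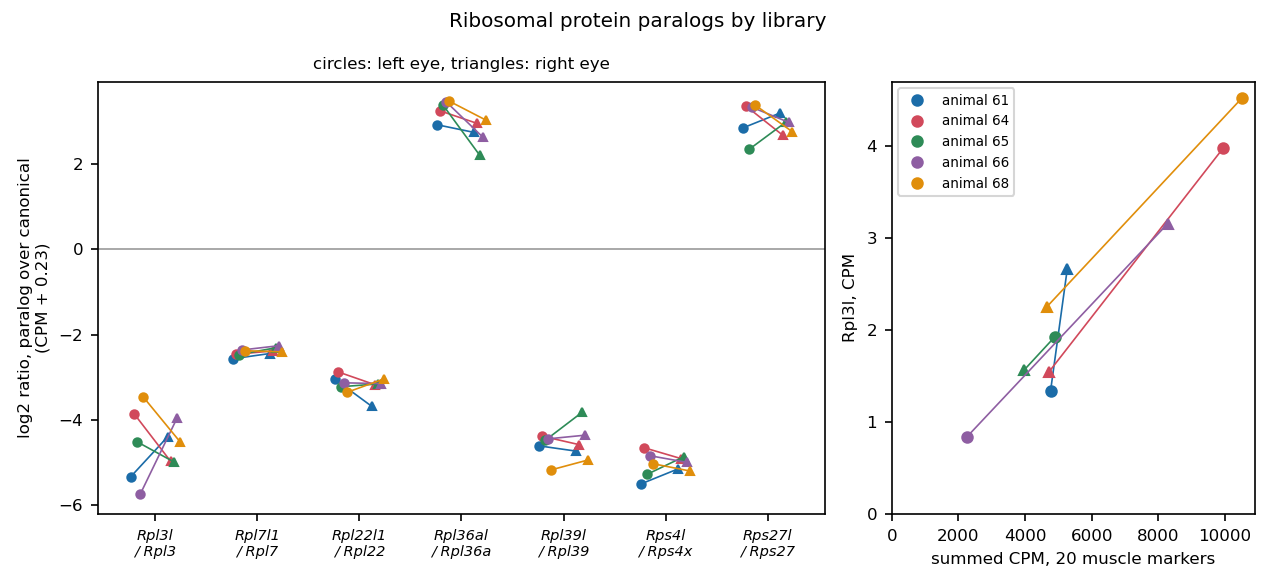
Left panel: log2 ratio of each paralog to its canonical partner, from CPM + 0.23, in left (circles) and right eyes (triangles) of each animal, with Rpl36al over Rpl36a lower in the right eye of all 5 animals and lying between 2.21 and 3.49. Right panel: Rpl3l (CPM) against the summed CPM of 20 skeletal muscle markers in the same libraries, where both are highest in the left eye of animal 68 and lowest in the left eye of animal 66. Ttn alone makes up much of the muscle sum, with a mean of 3532 CPM.

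The other genes of translation were set beside the members as lists. Over all genes tested, 54.0% lay lower in the right eye with a median of -0.0079. The mean log2 value of 26 further genes with TOP messengers differed by -0.012, -0.066, 0.032, -0.11 and -0.15 in the 5 animals. Animal 65 thus did not share the direction. Of these 26 genes, 21 lay lower in the right eye with a median of -0.059. The elongation factors Eef1a1 (0.021 ± 0.076) and Eef2 (0.036 ± 0.060), the highest of the list, were not among these 21. None was called between eyes, and Eif2s3x, an X-linked subunit of an initiation factor, was called among animals (adjusted p 0.0260, limma). It measured 56.6, 37.0, 54.8, 37.7 and 36.5 CPM in the left eyes and 58.4, 38.6, 57.7, 38.5 and 37.1 CPM in the right eyes. Both eyes of animals 61 and 65 thus stood above those of the other animals, and the cause was not tested. Translation initiation factors were lower in 19 of 31 (median -0.016; Eif4g2 -0.033, Eif4a2 -0.016), ribosome biogenesis factors in 28 of 49 (median -0.0077; Ncl -0.050, Ubtf -0.046), and genes of mTORC1 and S6 kinase signalling in 12 of 16 (median -0.039; Mtor 0.042, Rragd -0.014). The 78 mitochondrial ribosomal proteins, which serve another ribosome, were divided 39 lower and 39 higher (Mrpl24 0.020, Mrps25 0.038). In none of these lists was a gene called between eyes by limma at an adjusted p under 0.05. An unadjusted p under 0.05 was found for 2 TOP genes (Eef1b2 -0.15, Eif3f -0.17), 2 initiation factors (Eif1 -0.18, Eif2b2 0.17) and 0 genes of the other 3 lists, beside 2.79% of all genes. These 4 genes were named after their values were seen. Values in brackets are right minus left log2 differences.

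Markers of the tissues in these pieces also had unequal levels in fellow eyes. All 14 tested RPE markers were higher in the right eye on average (median 0.19; summed level 6277 to 6968 CPM on the left, 6431 to 8559 CPM on the right), as were 10 of 10 endothelial markers (median 0.10; 421 to 457 and 386 to 518 CPM). All 11 markers of surface epithelium were lower in the right eye (median -0.99; 342 to 1031 and 162 to 814 CPM), as were 17 of 20 muscle markers. Best1 of the RPE list lay below 1 CPM (0.501 CPM). By animal, the mean of the RPE log2 values differed by 0.14, -0.018, 0.41, 0.29 and -0.024, so animals 64 and 68 did not share the direction. The endothelial mean was lower in the right eye of animal 68 (-0.25). Melanin synthesis genes (4 of 8 lower), scleral matrix genes (4 of 12), leukocyte markers (5 of 10) and rod markers (7 of 10) were divided. Of 12 lens crystallins, 10 were higher in the right eye on average (median 0.20), but their mean was lower in the right eye of animals 64 and 68 (-0.48 and -0.57). No marker was called by limma, and 1 of them, Actn3 of the muscle list, had an unadjusted p under 0.05 (-0.99). The RPE markers of the labelled tissue thus summed to at least 6277 CPM in every library, beside muscle markers at 2254 to 10499.9 CPM, rods at 155 to 1965 CPM and lens crystallins at 161 to 1037 CPM. These sums cover lists of unequal size, are not divided by transcript length and do not compare amounts of tissue. By library, the surface epithelium sum was 342, 772, 667, 1031 and 542 CPM in the left and 814, 378, 162, 182 and 284 CPM in the right eyes. It was lower in the right eye of animals 64, 65, 66 and 68, whereas the ribosomal protein sum was lower in that of 61, 64, 66 and 68. The part of these tissues in the ribosomal protein values was not tested.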

How the data were processed

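The authors' deposited table holds normalized values that were read as CPM of each library's total plus an offset of 0.0001. That unit was inferred from the values, and the offset was subtracted. Per the submitters' processing notes the authors used STAR, Partek and GRCm38; the sources used here give no versions, strand use or handling of reads matching several places. There were 0 per-sample columns left out.

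The 15414 genes reaching 1 CPM on average were tested as log2(CPM + 0.23) with limma 3.58.1 in R 4.3.3 (eye side, animal as block, Benjamini-Hochberg adjustment over all genes); fold changes are on that scale and understate changes of low genes. Other steps used Python 3.11.15, numpy 2.4.6, pandas 2.3.3, matplotlib 3.10.9 and BLAST+ 2.17.0. Copies were found with blastn against GENCODE M21 transcripts, and matching entries not annotated as pseudogenes were kept only with 1 exon. Per the titles, fellow eyes share an animal. Their deviations over all genes tested correlated at 0.272, 0.113, 0.0536, -0.189 and -0.0547. Over the members alone the correlations were -0.0778, -0.294, -0.0904, -0.360 and 0.161, so fellow eyes were not alike in these genes in most animals. The limma p-values between eyes cover the spread of within-animal differences among 5 mice. Those among animals take the spread between fellow eyes as the error. The exact permutation over divisions of the libraries takes no account of the animal. In simulated data 80.6%, 100.0% and 100.0% of genes changed 1.5-, 2- and 4-fold between eyes were recovered among 15414, with 8 false calls, and 23.9%, 98.5% and 100.0% among animals, with 6. The simulation gave every gene the same dispersion, no uneven dissection, and 67, 67 and 66 changed genes at these folds in each contrast. Real genes varied with SDs of up to 4.31 log2 units over the libraries, so the shares are not recovery rates for these data.

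Implied reads per library were taken from the smallest value steps. Members and lists were chosen with earlier results of these data known. Named were the paralogs and their partners, the 4 highest and 4 lowest canonical members of each subunit, the 3 members with the smallest p in each direction between eyes, the 6 with the smallest p among animals, the stalk genes, Rpsa and Rps6, the 2 highest genes and any called gene of each other list, and Fau, Rps27a and Rack1. A few genes that the naming rule covers are not reported here, and they stay in all counts and sums. Alternatives covered the block, scaling, pseudocount, filter, moderation, each animal or library left out and, chosen after seeing the data, genes summed with their copies.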

Additional observations from a re-analysis of the deposited data

Results flagged for a closer look

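Of 78 groups of 5 left or right eyes, 7 had a sample far from the other 4 by Dixon's ratio, a rule that chance alone meets in about 1 in 20 groups. The left eye of animal 65 was the low sample in 5 of them: Rplp0 at 109 CPM beside 130.4 to 137 in the other left eyes, Rps14 at 69.3 beside 90.4 to 97.6, Rps3 at 88.2 beside 102 to 106, and the sums of large-subunit (1409 CPM beside 1658 to 1712) and small-subunit genes (1164 CPM beside 1369.7 to 1414). These 5 share a library and are not independent. Rpl17 stood at 2.08 CPM in the left eye of animal 68, beside 0.888 to 1.21 in the other left eyes. Rpl39l stood at 0.646 CPM in the right eye of animal 65, beside 0.276 to 0.372 in the other right eyes.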

How the results depend on the processing

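No member was called between eyes or among animals under any alternative run. With no replicate block, limma called 0 members, 67 of 81 were lower in the right eye and the median was -0.081, so the pairing changed no call. Outside left-out samples the median of members ran from -0.091 to -0.065, and members lower in the right eye numbered 71 when listed genes were scaled to 1 total, 60 with median-of-ratios scaling and 61 with quantile normalization. Leaving out 1 animal or library gave 52 to 76 members lower and medians of -0.12 to -0.039. Genes called among animals numbered 13, or 25 with no eye side term and 5 to 10 with a sample left out; the cause was not tested.

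With copies summed, the right minus left difference turned for Rpl36a (-0.13), Rpl23a (-0.048), Rps12 (-0.091) and Rpl3 (-0.026). Rpl3 also turned when listed genes were scaled to 1 total (-0.00344), and with a pseudocount of 1 CPM Rpl3l (-0.018) and its ratio to Rpl3 (-0.026) turned. With a sample left out, differences ran from -0.16 to 0.017 for Rpl10, from -0.044 to 0.039 for Rpl3, from -0.39 to 0.34 for Rpl3l, from -0.034 to 0.048 for Rpl7l1 and from -0.21 to 0.038 for Rps27l. Differences in ratio ran from -0.43 to 0.30 for Rpl3l over Rpl3, from -0.22 to 0.014 for Rpl22l1 over Rpl22, from -0.073 to 0.14 for Rps4l over Rps4x and from -0.69 to -0.44 for Rpl36al over Rpl36a. The cause of these changes of sign was not tested. Levels of Rps27, Rpl17, Rpl23a, Rpl24 and Rpl36a rest on the small part of reads listed under the gene.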

Other observations

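In addition to the 5 copies of Rpl35a, 2 copies of Rpl21 (Gm10240 and Gm13370) and 2 copies of Rpl27 (Gm11518 and Rpl27-ps3) had equal values in all 10 libraries, at means of 9.39 and 15.8 CPM for each copy. Rpl21 itself had 60.3 CPM and Rpl27 2.08 CPM. Rpl9 was listed at 8.05 CPM and its copy Rpl9-ps6 at 70.6 CPM. These genes were named after their values were seen.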
